A study of Bos taurus with 6 samples.

Results

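The genes of glycolysis, of lactate production and export, and of glycogen storage and breakdown were compared between the longissimus dorsi muscle of Luxi cattle (L) and that of Shandong black cattle (B). The list holds 39 genes, chosen by name for their place in these pathways and matched to the gene names in the transcript files. Of these, 38 were found among 17258 named genes, 37 averaged 1 FPKM or more in B or in L and so were among the 9765 genes tested, ALDOC was too low to test, and PHKB was not analysed here.

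The study took this back muscle, at the thoracic ribs, from 3 animals of each breed at 18 months of age and made 1 RNA library from each. Shandong black cattle is a bred line with Japanese black, Luxi and Bohai black ancestry, and Luxi is a local yellow breed, so the breeds share part of their ancestry. Animals received no treatment, and the breeds came from different suppliers, so that breed and herd cannot be told apart. The labels give no sex, and animals are named below by breed letter and replicate number.

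Glycolysis splits glucose into pyruvate and yields ATP without oxygen. In working muscle much of the glucose phosphate comes from stored glycogen, and pyruvate that the mitochondria do not take up is reduced to lactate and exported. Fast-twitch fibres rely on this route more than slow-twitch fibres do, and many of its steps have muscle isozymes next to isozymes that are widespread in other tissues. Glycogen in beef muscle at slaughter is the source of the lactate that lowers the pH of meat.

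FPKM scales the fragments of a transcript to its length and to the size of the library, and allows genes to be set side by side. Its total still differed between animals. Over all named genes it summed to 249790 to 263850 in B and to 205830, 303340 and 316250 in L1, L2 and L3. Each library held 14.1 to 14.6 gigabases of aligned sequence in B and 17.5 to 17.99 in L. All 8 genes of a skeletal muscle list were found in every animal, and their summed FPKM was 43296 to 53354 in B and 23560 to 69057 in L. The library of L1 stood apart in this sum, with 23560 against 61476 in L3 and 69057 in L2. ACTA1 made up most of the sum, at 12237 in L1, 47110 in L3 and 54910 in L2. L1 was the lowest Luxi animal for ACTA1, CKM and RYR1, but not for TTN, NEB, MB, DMD or CKMT2. Summed FPKM of 10 fast fibre genes was 3181, 4535 and 5554 in B1, B2 and B3, and 4581, 30692 and 28350 in L1, L2 and L3. That of 11 slow fibre genes was 35562, 28801 and 31203 in B and 13107, 3449 and 15117 in L, so the breeds overlapped for fast but not for slow genes. Of 9 fast fibre genes tested, 3 were higher in every L animal than in any B animal, 6 overlapped and none was called in limma (6 had an unadjusted p under 0.05). Of 11 slow fibre genes tested 6 were lower without overlap, 1 was higher without overlap and 1, TNNI1, was called, as lower. The higher one was MYL3 (log2 fold change 3.33, limma adjusted p = 0.118). MYL2, the highest slow gene in every animal, was at 24908, 16912 and 20824 in B and 5810, 1513 and 7936 in L. Summed fat cell markers were 197 to 256 in B and 74.7 to 99.5 in L. Of the 11 tested, 7 were lower in L without overlap and 5 were called, all lower. LPL was higher in L without overlap, and 3 overlapped. Endothelial markers summed to 25.2 to 27.2 in B and 32.0 to 91.6 in L, with the highest sum in L1. Fibroblast markers summed to 122 to 218 in B and 414 to 524 in L, and of the 8 genes 4 were higher in L without overlap (COL1A2 and COL3A1 were called), 1, POSTN, was lower without overlap and 3 overlapped. Myeloid markers summed to 9.54 to 12.5 in B and 8.32 to 14.2 in L. Smooth muscle markers summed to 1327 to 2660 in B and 346 to 2046 in L, but DES, which skeletal muscle also expresses, made up most of this, and without DES the sums were 77.5 to 90.6 in B and 172, 47.5 and 113 in L1, L2 and L3. Of the red blood cell and liver lists, 4 and 3 genes were found, none reached the filter, and their sums were at most 1.65 in any animal. In whole tissue, fewer cells of a type and less RNA per cell cannot be told apart, and the part of these lists in the results below was not tested.

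The lactate exporter SLC16A3 and the regulatory enzyme PFKFB3 were higher in Luxi cattle, and these 2 of the 37 genes passed the test. The mean log2 level was higher in L for 24 genes and lower for 13. Among all 9765 genes tested it was higher for 6114 and lower for 3651. A gene was called in limma where the Benjamini-Hochberg adjusted p was under 0.05 and the log2 fold change 1 or more in size, and fold changes are those of log2(FPKM + 1), L minus B. The 2 genes called are 5.41% of the 37, against 2.55% called among all genes tested. Among all genes, 1.56% were called as higher in L. By size alone, 14 genes had a log2 fold change of 1 or more and 3 of -1 or below (37.8% and 8.11%), against 5.13% and 2.86% of all genes. The median log2 fold change of the 37 genes was 0.90 and that of all genes tested was 0.13. The median of the 37 was 0.50 without L2 and 0.59 without B1. From reference transcripts only, where 36 of them were tested, it was 0.33. In 10 genes every L animal was above every B animal and in 5 every L animal was below, while 22 overlapped. These are 27.0% and 13.5% of the 37 genes, and among all genes 20.0% and 9.10% separated in these directions. An unadjusted p under 0.05 was found for 19 of the 37 genes (51.4%), 13 higher and 6 lower in L, against 21.9% of all genes tested, 15.1% higher and 6.77% lower. A comparison of 3 with 3 animals cannot give an exact permutation p below 0.1.

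**Figure D1:**
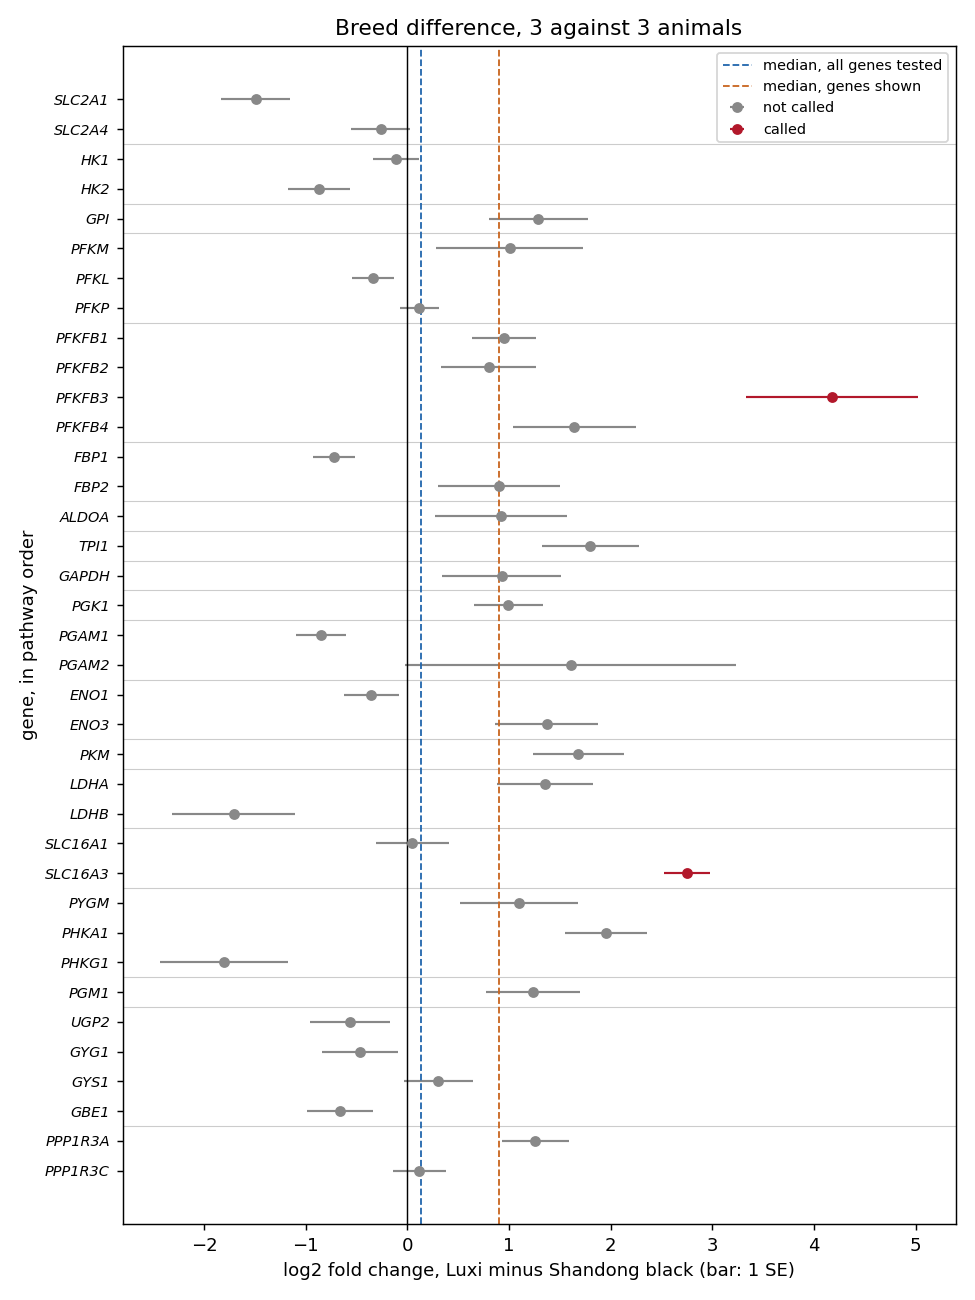
Log2 fold change of each of the 37 genes tested (horizontal axis, Luxi minus Shandong black on log2(FPKM + 1), bar 1 SE, 3 against 3 animals), with genes in pathway order. SLC16A3 at 2.75 and PFKFB3 at 4.18 are the 2 genes called, and the median of the genes shown lies at 0.90 against 0.13 for all genes tested.

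SLC16A3 encodes MCT4, the carrier through which fast fibres export lactate with a proton. Its FPKM was 0.68, 0.68 and 0.48 in B1, B2 and B3, and 10.7, 12.6 and 7.01 in L1, L2 and L3. All B animals were below 1 and the lowest L animal was at 7.01, so the breeds did not overlap, and the ratio of the means was 16.5. The log2 fold change was 2.75 (SE 0.22, limma adjusted p = 0.00717). The gene spans chr19:50634317-50646382 of ARS-UCD1.2 on the minus strand. In B1 all of its FPKM lay on assembled transcripts without a reference name, and in L 69.3 to 100% lay on reference transcripts. It was called under every alternative except when B3 was left out, where the log2 fold change was 2.69 and the limma adjusted p 0.0542, with a range of 0.00471 to 0.0542 over the alternatives. SLC16A1, the gene of the carrier MCT1 that takes up lactate in slow fibres, was at 17.4, 15.0 and 14.3 in B and 28.4, 9.85 and 14.6 in L, and the breeds overlapped. As a share of the 2 carriers, SLC16A3 made up 3.78%, 4.34% and 3.23% in B and 27.3%, 56.1% and 32.4% in L. The log2 fold change of SLC16A1 was 0.05 (adjusted p = 0.951 in limma), and its sign turned under TPM, size factors and quantile normalization.

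PFKFB3 makes fructose 2,6-bisphosphate, a potent activator of phosphofructokinase. Its FPKM was 2.92, 6.49 and 6.02 in B and 26.0, 347 and 129 in L. L1 was the lowest of its breed but above every B animal, and L2 was the highest. The mean was 5.15 ± 1.94 in B and 167 ± 164 in L (SD, n = 3), and the log2 fold change was 4.18 (SE 0.84, limma adjusted p = 0.0492). Leaving out L1 gave 5.17, leaving out L2 gave 3.33 with an adjusted p of 0.0916, and the call held with L1 left out but with none of the other animals left out. It was lost under 8 of 16 alternatives, over which the limma adjusted p ran from 0.0115 to 0.177. The gene spans chr13:17271153-17320950 on the minus strand. Its main transcripts differ by a 23-base exon. The form without it was at 2.47, 0.64 and 2.33 in B and 10.9, 207 and 74.2 in L, and the form with it at 0.31, 3.15 and 1.69 in B and 11.3, 134 and 40.4 in L. Neither form led in every animal: the form with the exon was the higher in B2 and L1 and the form without it in the other 4.

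PFKFB4, which makes the same activator, was at 3.74, 11.5 and 6.53 in B and 9.03, 49.3 and 25.8 in L. L1 lay below B2, so the breeds overlapped, and the log2 fold change of 1.64 (SE 0.60) was not called (limma adjusted p = 0.175), and without L1 it was 2.27 and called. PFKFB1, the form of liver and muscle, was at 3.28, 8.46 and 5.10 in B and 8.95, 13.8 and 11.0 in L and did not overlap, with a log2 fold change of 0.95 (adjusted p = 0.142 in limma). Its FPKM came almost wholly from assembled transcripts, with at most 20.7% on reference transcripts in any animal. PFKFB2, the heart form, was low, with 0.38 to 0.75 in B and 4.58, 0.35 and 1.42 in L. As a share of the summed FPKM of the 4 genes, PFKFB3 was 28.2%, 23.9% and 33.4% in B and 53.5%, 84.5% and 77.1% in L. The 4 genes together summed to between 10.4 and 27.2 in B and to 48.5, 411 and 167 in L.

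**Figure D2:**
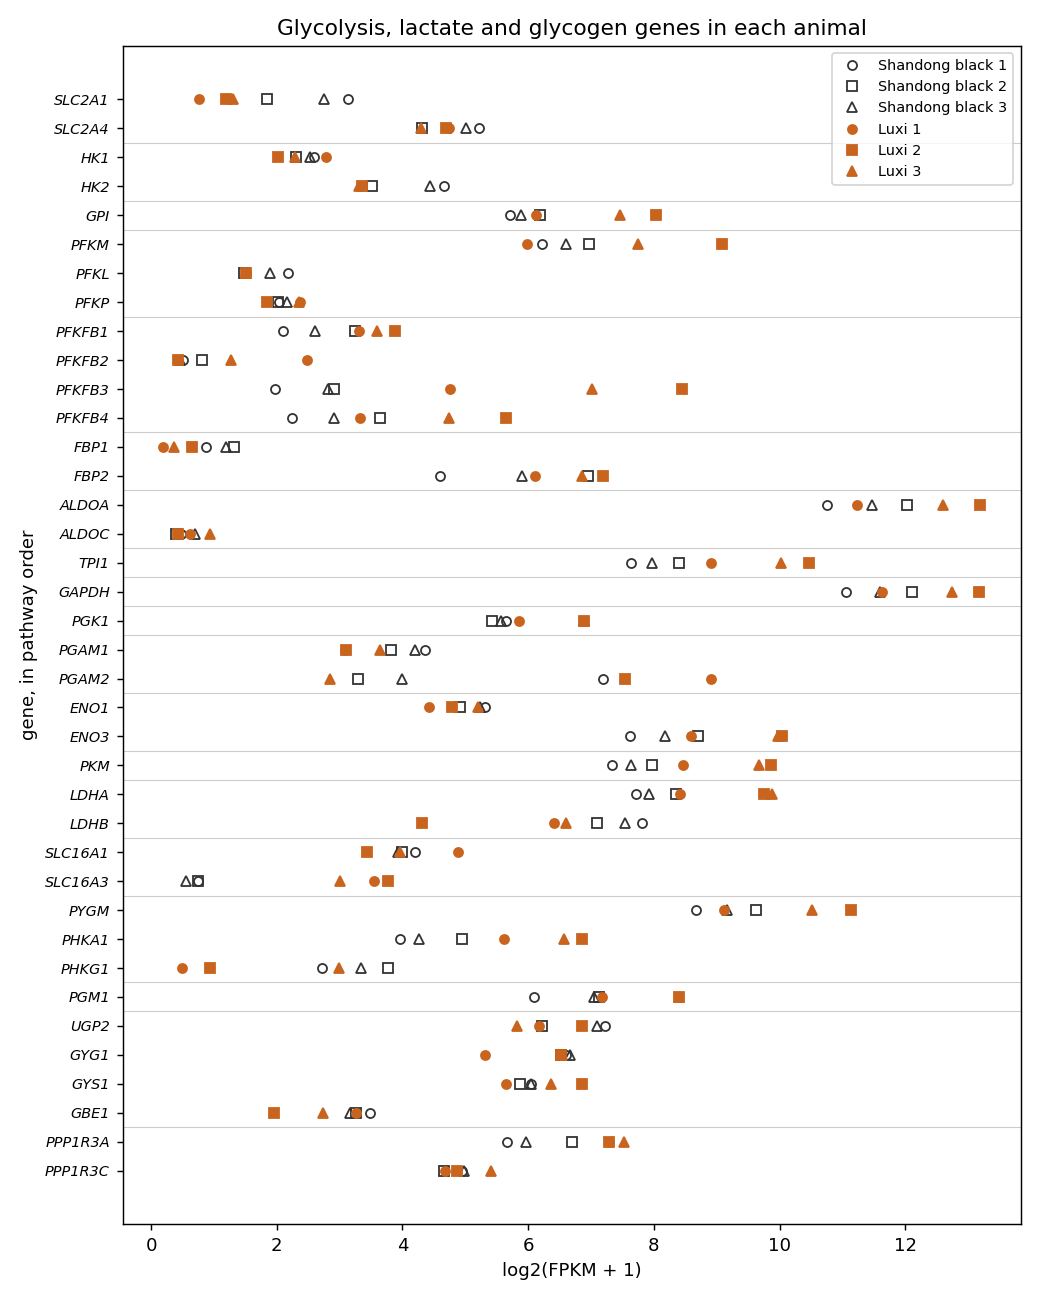
FPKM of 38 genes in each of 6 animals on a log2(FPKM + 1) axis, with genes in pathway order and grey lines between steps (open black: Shandong black cattle, filled orange: Luxi cattle, symbol shape: replicate number). The orange points of PFKFB3 and SLC16A3 lie apart from the black ones, while ALDOA and GAPDH are the highest genes and overlap between breeds.

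At glucose uptake and phosphorylation all 4 genes had log2 fold changes below 0, though that of HK1 turned to 0.062 without L2. SLC2A1 (GLUT1), the carrier found in most cells, was at 7.78, 2.59 and 5.73 in B and 0.70, 1.28 and 1.46 in L. Every L animal was below every B animal, with a log2 fold change of -1.49 (SE 0.34) that missed the threshold (limma adjusted p = 0.0642), and it was called with B2 left out, with size factors, with quantile normalization and from reference transcripts only (adjusted p 0.0317 to 0.225 over 15 alternatives). Reference transcripts held none of its FPKM in L1 and L2 and 47.5% in L3, against all of it in B. SLC2A4 (GLUT4), the insulin-responsive carrier of muscle and fat, was at 36.0, 18.8 and 31.3 in B and 25.8, 24.9 and 18.7 in L and overlapped. Its share of the 2 carriers was 82.2 to 87.9% in B and 92.8 to 97.4% in L. HK2, the hexokinase of muscle, was at 24.4, 10.5 and 20.6 in B and 9.15, 9.21 and 8.92 in L, which did not overlap but was not called (log2 fold change -0.87, SE 0.31, adjusted p = 0.159 in limma). HK1, the hexokinase of most tissues, lay between 3.04 and 5.88 in all animals and overlapped.

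GPI, which turns glucose 6-phosphate into fructose 6-phosphate, was at 51.2, 71.5 and 57.9 in B and 69.0, 262 and 175 in L. L1 lay within the range of B and the other two L animals above it (log2 fold change 1.29, SE 0.49, limma adjusted p = 0.183). PFKM, the muscle phosphofructokinase, was at 73.8, 124 and 96.0 in B and 62.0, 541 and 214 in L. L1 was below all B animals and L2 far above, and the log2 fold change was 1.01 with an SE of 0.72 (limma adjusted p = 0.443). It was 1.82 without L1 and 0.27 without L2. Assembled transcripts carried a large part of PFKM in L2 and L3, where reference transcripts held 63.5% and 36.0%, and from reference transcripts alone the log2 fold change was 0.30. PFKL and PFKP, the forms of liver and platelets, stayed at 1.79 to 3.55 and 2.60 to 4.18 over all animals. PFKM was 91.1 to 99.2% of the 3 genes in every animal.

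FBP2, the muscle bisphosphatase that works against phosphofructokinase, ranged from 23.2 to 123 in B and from 67.9 to 146 in L and overlapped, with a log2 fold change of 0.90 that was 0.29 without B1. FBP1, the liver form, was at 0.84, 1.48 and 1.28 in B and 0.15, 0.58 and 0.29 in L, without overlap. All of its FPKM in L lay on assembled transcripts and all of it in B on the reference transcript. Its log2 fold change was -0.72 (adjusted p = 0.109 in limma, 0.0451 to 0.340 over the alternatives). From reference transcripts only it was called, at -1.13 (limma adjusted p = 0.0451), and with a pseudocount of 0.1 it was -1.66 and not called.

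ALDOA and GAPDH were the highest of the 38 genes, and they made up 60.5 to 72.3% of the FPKM of the set. ALDOA, the aldolase of muscle, was at 1717, 4190 and 2831 in B and 2412, 9299 and 6208 in L. GAPDH, which oxidises glyceraldehyde 3-phosphate, was at 2135, 4413 and 3094 in B and 3154, 9259 and 6875 in L. In both genes L1 lay between the B animals and L2 was the highest of all, and neither was called (log2 fold changes 0.92 and 0.93, SE 0.65 and 0.58, limma adjusted p = 0.433 and 0.387). ALDOC, the brain aldolase, was at 0.31 to 0.63 in B and 0.35 to 0.92 in L, with an exact permutation p of 0.6 (two-sided).

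TPI1, which interconverts the triose phosphates, was at 199, 336 and 249 in B and 482, 1408 and 1042 in L. All L animals were above all B animals, and the log2 fold change was 1.80 (SE 0.48, limma adjusted p = 0.0951). PGK1, an X-linked kinase that yields ATP, was at 49.0, 42.1 and 46.2 in B and 56.7, 117 and 117 in L, again without overlap. Its log2 fold change was 0.99 (SE 0.34, limma adjusted p = 0.147). ENO3, the muscle enolase, was at 197, 414 and 287 in B and 385, 1051 and 1006 in L, with L1 below B2 (log2 fold change 1.37, limma adjusted p = 0.178). ENO1, the widespread enolase, was at 38.9, 29.1 and 36.8 in B and 20.4, 26.5 and 35.8 in L, and at most 40.0% of it lay on reference transcripts. ENO3 was 83.5%, 93.4% and 88.7% of both enolases in B and 95.0%, 97.5% and 96.6% in L, so its share did not overlap although its level did.

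The phosphoglycerate mutases followed another order. PGAM2, the muscle form, was at 146, 8.79 and 15.0 in B and 477, 186 and 6.23 in L. B1 and L1 were the highest of their breeds and L3 was the lowest of all, which is unlike ALDOA or GAPDH. The log2 fold change was 1.61 with an SE of 1.63 (limma adjusted p = 0.595). It was 0.37 without L1, 3.40 without L3, 2.79 without B1 and 0.84 without B2. Assembled transcripts that touch PGAM2 but were not added to it held an FPKM of 13.1 in B2 and 3.75 in B3. PGAM1, the widespread form, was at 19.5, 13.1 and 17.4 in B and 7.5, 7.56 and 11.5 in L, with all L animals lower and a log2 fold change of -0.84 (adjusted p = 0.110 in limma).

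PKM, the pyruvate kinase of muscle, was at 161, 251 and 197 in B and 352, 927 and 813 in L. The breeds did not overlap, and the log2 fold change was 1.68 (SE 0.45, limma adjusted p = 0.0957). Its reference transcripts differ by a pair of 167-base exons on chromosome 10, of which a transcript holds either the upstream one (19142098 to 19142264), that of the muscle form M1, or the downstream one (19141547 to 19141713), that of the M2 form of growing and other cells. The M1 transcript held 86.4%, 93.0% and 92.0% of PKM in B and 93.6%, 96.7% and 100% in L. In FPKM the M2 transcript was at 21.9, 17.6 and 15.7 in B and 22.5, 30.9 and below 0.01 in L. The M1 transcript itself was at 139 to 233 in B and 330 to 896 in L, without overlap.

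LDHA and LDHB, whose subunits favour lactate and pyruvate as product respectively, lay in opposite directions. LDHA was at 208, 327 and 241 in B and 341, 859 and 939 in L. LDHB was at 224, 135 and 185 in B and 84.1, 18.9 and 95.8 in L. Neither gene overlapped between the breeds, with L1 just above B2 for LDHA, and neither was called (log2 fold changes 1.35 and -1.71, SE 0.47 and 0.61, limma adjusted p = 0.154 and 0.161). Without L2 the log2 fold change of LDHB was -0.98. The sum of both was 425 to 462 in B and 425, 878 and 1035 in L. LDHA made up 48.2%, 70.7% and 56.6% of it in B and 80.2%, 97.8% and 90.7% in L. The share of LDHA was 58.5 ± 11.4% in B and 89.6 ± 8.88% in L (SD, n = 3), and it stayed 26.0 to 37.2 percentage points higher in L with any animal left out. L2, with the lowest LDHB, also had the lowest summed FPKM of the slow fibre genes (3449).

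**Figure D3:**
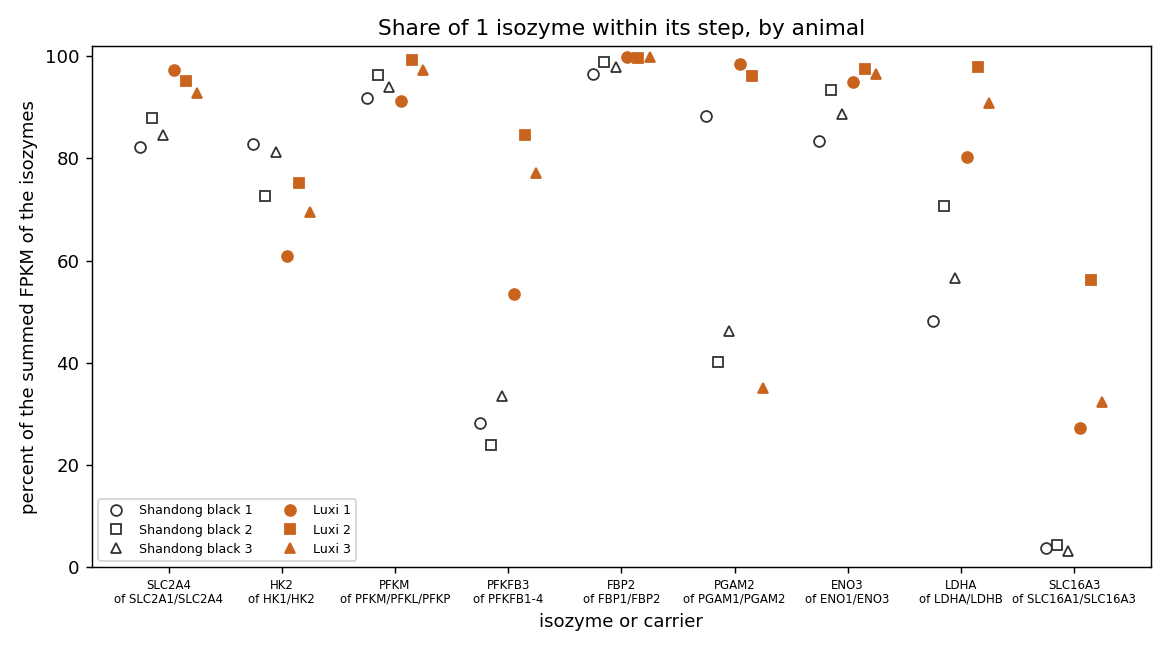
Share of the named isozyme or carrier in the summed FPKM of its step (vertical axis, percent), for 9 steps in each of 6 animals (open black: Shandong black cattle, filled orange: Luxi cattle). The shares of LDHA, PFKFB3, SLC16A3, SLC2A4, ENO3 and FBP2 do not overlap between breeds, and those of HK2, PFKM and PGAM2 do.

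For glycogen breakdown, PYGM, the phosphorylase that frees glucose 1-phosphate, was at 407, 791 and 573 in B and 555, 2247 and 1461 in L, and L1 lay among the B animals (log2 fold change 1.10, limma adjusted p = 0.311). PHKA1, the muscle regulatory subunit of the kinase that activates it, was at 14.6, 29.7 and 18.2 in B and 47.9, 115 and 93.5 in L. All L animals were above all B animals, the ratio of the means was 4.10, and the log2 fold change was 1.96 (SE 0.40). Its adjusted p of 0.0516 in limma just missed the threshold, and it was called under 7 of 16 alternatives, over which the adjusted p ran from 0.0190 to 0.204. PHKG1, the catalytic subunit in muscle, lay the other way, at 5.58, 12.6 and 9.16 in B and 0.41, 0.92 and 6.95 in L. L3 lay within the range of B, and the log2 fold change was -1.80 (SE 0.63, limma adjusted p = 0.154). In L2 assembled transcripts that were left out of PHKG1 held an FPKM of 11.5, and with such transcripts added the log2 fold change was -0.87. Without L3 it was -2.56 and called (adjusted p = 0.0437 in limma, 0.0437 to 0.536 over the alternatives). PGM1, which links glucose 1-phosphate to glycolysis, was at 67.4, 139 and 131 in B and 144, 335 and 338 in L, where the lowest L animal was just above the highest B animal (log2 fold change 1.23, limma adjusted p = 0.179).

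The 4 genes of glycogen synthesis overlapped between the breeds. UGP2, which makes UDP-glucose, was at 148, 73.8 and 136 in B and 71.5, 114 and 55.9 in L. GYG1, the glycogenin that primes the chain, was at 90.7 to 100.2 in B and 38.7, 91.2 and 91.7 in L. GYS1, the muscle glycogen synthase, was at 57.4 to 65.3 in B and 49.4, 114 and 81.1 in L. GBE1, the branching enzyme, was at 8.02 to 10.2 in B and 8.54, 2.86 and 5.64 in L. The log2 fold changes of these genes lay between -0.66 and 0.30, and their limma adjusted p-values ran from 0.286 to 0.632. Of the subunits that bring protein phosphatase 1 to glycogen, PPP1R3A was at 49.5, 103 and 61.6 in B and 156, 155 and 183 in L, without overlap, with a log2 fold change of 1.26 (SE 0.33, limma adjusted p = 0.0923). Here the spread within L was small and L1 was not low. PPP1R3C was at 24.3 to 30.6 in B and 24.5 to 41.4 in L and overlapped.

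The animals of a breed differed in a way that many of these genes shared. In 14 of the 37 genes B1 was the lowest and B2 the highest of B while L1 was the lowest and L2 the highest of L, an arrangement found in 6.81% of all genes tested. It joins the commonest order in B (18 of the 37 genes) and in L (15 of them). Because it was taken from these same genes, its share among all genes is a description and not a test. The 14 genes were GPI, PFKM, PFKFB1, PFKFB3, PFKFB4, FBP1, FBP2, ALDOA, TPI1, GAPDH, ENO3, PKM, PYGM and PHKA1. The arrangement was not particular to this set. TNNT3, TNNI2, ATP2A1 and ACTN3 of the fast fibre list and ACTA1 and CKM of the skeletal muscle list also had it. The other genes of those 2 lists did not. L1 was the lowest Luxi animal in 24 of 37 genes (64.9%), against 47.2% of all genes. The genes of the set together held 2.41%, 4.76% and 3.28% of the named gene FPKM in B and 4.47%, 9.16% and 6.40% in L, where L1 was below B2. The median SD of log2(FPKM + 1) within a breed was 0.37 in B and 0.66 in L for these genes, and 0.19 and 0.31 for all genes. With L1 left out, 11 of the 36 genes then tested were called, beside 591 of all 9697 genes. All 11 were higher in L (ENO3, GPI, LDHA, PFKFB3, PFKFB4, PGK1, PGM1, PHKA1, PKM, SLC16A3 and TPI1). With B3 left out none of the 37 was called, and 3 of all 9774 genes were. Leaving out B1 or L2 left SLC16A3 as the gene called, beside 15 of all 9772 and 48 of all 9864 genes. Leaving out B2 left SLC16A3 and SLC2A1, beside 185 of all 9793 genes. Leaving out L3 left SLC16A3 and PHKG1, beside 86 of all 9796 genes.

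**Figure D4:**
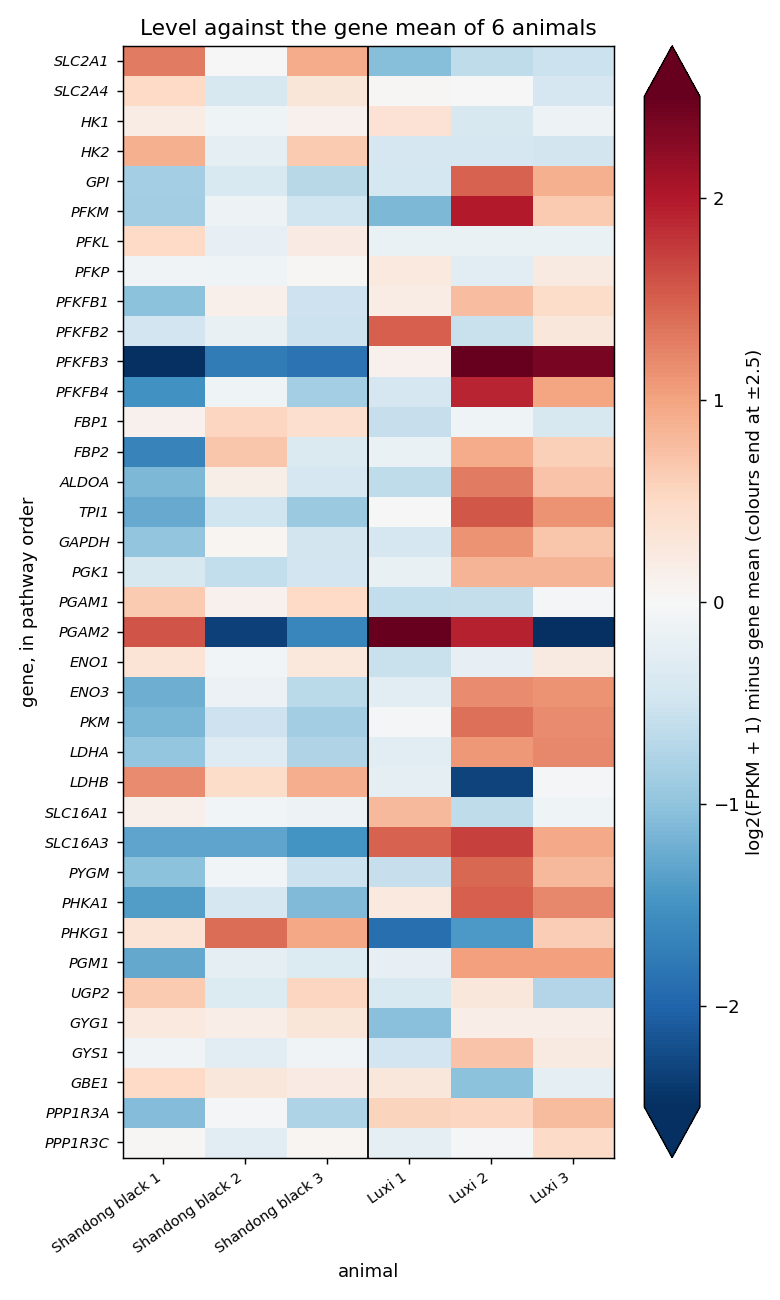
Level of 37 genes (rows, pathway order) in 6 animals (columns), as log2(FPKM + 1) minus the mean of the gene over all animals, with red above and blue below the mean and colours ending at 2.5 on either side. Luxi 2 and Luxi 3 are red for most glycolytic genes and Luxi 1 is paler in most of them, while LDHB and PGAM1 are above the mean in the 3 Shandong black animals, HK2 in Shandong black 1 and 3 but not 2, and PGAM2 follows an order of its own.

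PFKFB1, PGK1 and PHKA1 lie on the X chromosome. XIST, the RNA that coats the inactive X of females, was at 10.7, 4.83 and 14.0 in B and at 0, 0 and 0.21 in L, so that breed and sex cannot be told apart in these animals. Of 6 genes on a sex list, XIST and EIF2S3 were lower in L without overlap and called. The other 4, KDM6A, KDM5C, DDX3X and ZFX, overlapped.

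Beyond the 39 genes, 71 further genes of the same pathways and their regulators were listed, of which 44 were tested and none was called in limma. An unadjusted p under 0.05 was found for 15 of them (34.1%, against 21.9% of all genes tested), 10 higher and 5 lower in L, and their median log2 fold change was 0.15. MLXIP, a glucose-sensing transcription factor, was at 5.98, 5.42 and 5.23 in B and 12.5, 46.0 and 27.9 in L (log2 fold change 2.01, SE 0.42, limma adjusted p = 0.0543). MLXIP was called under TPM, under quantile normalization and with any overlapping assembled transcript added, and with L1 left out it was called together with BPGM, PPARGC1A and SLC37A4. PDK4, the kinase that holds pyruvate back from the citrate cycle, was at 139, 419 and 217 in B and 539, 752 and 738 in L. MPC2, a subunit of the mitochondrial pyruvate carrier, was at 19.1, 25.5 and 13.8 in B and 6.21, 2.04 and 12.4 in L. Neither overlapped between the breeds, and the limma adjusted p-values were 0.121 for PDK4 and 0.137 for MPC2. In L 39.6% of PDK4 lay on reference transcripts, against 94.6% in B. Of the other PDK genes, PDK1 and PDK3 were lower in L without overlap and PDK2 overlapped. The log2 fold changes of PDK1 and PDK3 were -0.691 and -0.689 (limma adjusted p = 0.0785 and 0.0835). BPGM, which makes 2,3-bisphosphoglycerate, was at 2.23 to 3.84 in B and 5.57 to 19.3 in L. SLC37A4, the glucose 6-phosphate carrier of the endoplasmic reticulum, was at 2.1 to 2.93 in B and 3.16 to 19.5 in L. PPARGC1A, the coactivator of mitochondrial genes, was at 1.70 to 2.07 in B and 44.5, 5.18 and 7.14 in L, with L1 the highest. ESRRG, a receptor that acts on oxidative genes, was at 2.67 to 7.45 in B and 0.71 to 2.57 in L.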

How the data were processed

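Total RNA of longissimus dorsi muscle from 3 Shandong black and 3 Luxi cattle was sequenced. The authors used Fastp for trimming and HISAT for alignment to the ARS-UCD1.2 genome, and assembled each library alone in StringTie with the NCBI annotation as guide and with strand. The file headers name StringTie 1.3.3b. The deposited files hold coverage, FPKM and TPM per transcript, and other values in them were not used.

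Gene FPKM was the sum over the reference transcripts of a gene plus those unnamed assembled transcripts that had 50% or more of their length on its exons, same strand. Assembled transcripts left out held 21.6 to 29.8% of the FPKM of a library. Of 38 genes found, 23 had at least 90% of their FPKM on reference transcripts in every animal. A transcript missing from a file was counted as 0. Read counts were not used, so no counting error is given, and the few animals limit the precision. Genes averaging 1 FPKM or more in either breed were tested with limma 3.58.1 in R 4.3.3 (lmFit, eBayes with trend) on log2(FPKM + 1), with Benjamini-Hochberg adjustment over all 9765 genes. This stood in for Cuffdiff, which the study used and which needs alignments. The procedure was also run on simulated data with independent noise in each gene. Those data lack the order of animals that many genes shared here.

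The 39 genes and all lists were chosen with earlier results of these data known. Named were all 39 genes and those of the pathway list that were called or had a log2 fold change of 1 or more in size without overlap. PDK1, PDK2 and PDK3 were named beside PDK4. Marker lists were given by counts and sums, with some single genes. Tables were made with Python 3.11.15 and pandas 2.3.3. Alternatives were TPM, size factors, quantile normalization, a pseudocount of 0.1, other filters and thresholds, a fit without trend, a replicate block, reference transcripts only, each animal left out and, chosen after seeing the data, any overlapping assembled transcript.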

Additional observations from a re-analysis of the deposited data

How the results depend on the processing

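Against 2 of the 37 genes called, 6 were called with quantile normalization (PFKFB3, PHKA1, PKM, SLC16A3, SLC2A1 and TPI1) and 1 without a filter on FPKM (SLC16A3), and leaving out single animals gave 0 to 11. Against 249 of all genes called, 65 were called without the filter, 139 with a mean FPKM of at least 5, 162 with reference transcripts only, 65 at a log2 fold change of 2 or more and 3 to 591 with single animals left out. The median log2 fold change of the genes moved from 0.90 to 0.33 with reference transcripts only, where 36 of the 37 were tested. The replicate block, which treats same-numbered animals as paired, gave 134 calls among all genes and 3 among the 37 (PFKFB3, PHKA1 and SLC16A3). The labels give no link between same-numbered animals beyond the number. Correlations of their deviations from the breed means were 0.0905, 0.0899 and 0.0817, and every animal correlated best with its own number. What these correlations reflect was not tested.

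Of 584 single-gene values under alternatives, 540 kept their direction and side of the threshold, 23 gained a call, 9 lost a call and 12 turned direction. SLC16A1 turned to -0.071 with TPM, -0.099 with size factors and -0.068 with quantile normalization, and ran from -0.34 to 0.38 with single animals left out. PPP1R3C turned to -0.0012, -0.036 and -0.036 under the same settings and ran from -0.093 to 0.27 with single animals left out. PFKP turned to -0.0039 with size factors and -0.0094 with quantile normalization, and HK1 ran from -0.32 to 0.062 with single animals left out. Size factors moved the median of all genes from 0.13 to 0.01, and the split of calls from 152 higher and 97 lower to 116 and 147. With quantile normalization it was 125 and 164. The causes of these changes were not tested.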
